A study of Mus musculus with 48 samples.

Results

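The genes described here encode potassium channels and their subunits outside the Kv1 family, measured in frontal cortex and hypothalamus after the mice had been kept from sleeping. Members were all genes whose symbol, read from the RefSeq accession of the array probe, began with Kcn. Kcna1 to Kcna10, Kcnab1 to Kcnab3 and Kcne2 were left out. This gave 110 probes for 77 genes on the array. Of these, 100 probes for 73 genes were measured, which means that the scanner marked the probe as well above background on at least 6 of the 8 arrays of at least 1 group. In all, 31228 probes for 16064 named genes were measured in the series. The 10 probes that were not measured left 4 genes without a value, namely Kcnj1, Kcnj15, Kcnj5 and Kcnv2. Tests used 96 of the 100 probes in cortex and 99 in hypothalamus. Values are described per probe, because 21 of the 73 genes had at least 2 measured probes and these did not always move together. A pair of members are not channel genes: Kcnq1ot1 is a noncoding RNA of the Kcnq1 locus and Kcnmb4os1 is a transcript opposite Kcnmb4.

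The 24 mice were 8 Per3 5/5 knock-ins, 8 Per3 4/4 knock-ins and 8 wild types (WT), all adult C57BL/6 mice. In the knock-ins, exon 18 of the mouse clock gene Per3 had been exchanged for the human exon with 5 or 4 copies of its tandem repeat, through a conditional allele that a ubiquitously expressed Cre had recombined; the mice studied no longer expressed Cre. The labels call Per3 5/5 mice Boxhill and Per3 4/4 mice Coach. Every mouse, WT included, underwent 12 h of sleep deprivation in the light phase before its brain was taken. The data hold no rested mouse, so whether a difference below depends on sleep loss cannot be told. The WT mice came from the same conditional transgenic stock, and each genotype was bred from its own homozygous pairs.

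Potassium channels let potassium leave the cell and so bring a depolarized neuron back towards rest. Voltage-gated Kv2, Kv3 and Kv4 channels shape the falling phase of the spike, silent Kv subunits form channels only together with Kv2, and KCNQ and EAG-type channels open near the spike threshold. Channels of the BK and SK families respond to calcium (the related Slack and Slick channels to sodium), while inward rectifiers and two-pore channels carry the resting conductance of neurons and glia. In slow-wave sleep, potassium currents help to end the phases in which cortical neurons fire, which is why these genes are of interest after sleep loss.

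Each value is a level, the log2 of the processed intensity of a probe minus the log2 of the 75th percentile of its array, so that 0 marks the 75th percentile. A difference of 1 between groups is a doubling of the signal. Differences were tested with limma over all probes measured, with Benjamini-Hochberg adjustment, and a probe is called higher or lower at an adjusted p under 0.05. The 75th percentile intensity of the 48 arrays ran from 307 to 1884, and between 27855 and 32966 probes were well above background on an array. Arrays of the Per3 4/4 replicates 6 and 7 were the dimmest. Scan days were uneven: in each tissue, day 1 held 4 Per3 5/5 and 4 Per3 4/4 arrays and no WT array, day 2 held 3 Per3 4/4 and 5 WT arrays, and day 3 held 4 Per3 5/5, 1 Per3 4/4 and 3 WT arrays. Genotype differences are therefore given also with scan day as a block and within 1 day. That day was day 3 for Per3 5/5 against WT and day 2 for Per3 4/4 against WT. Per3 4/4 and WT also met on day 3, with 1 Per3 4/4 array. All 7 cortical markers were called lower in hypothalamus, and all 10 hypothalamic markers higher. Of these 10, 8 were tested in cortex too, while Sim1 and Nkx2-1 entered through hypothalamus only. As the arrays measured tissue blocks, fewer cells of a type and less RNA per cell cannot be told apart.

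Of the 100 potassium channel probes, 63 were called lower in hypothalamus than in cortex of the same mouse and 22 were called higher. Over all 31228 probes, 35.6% were called lower and 38.1% higher. The median difference was -0.50 over the channel probes and 0.01 over all probes. In 34 probes the signal was lower by over 1 log2 unit, in 8 it was higher by as much, and for 35 probes no array of one tissue reached into the range of the other. Shares over all probes are not given for these sizes and ranges. They describe the channel probes and are not read as particular to them. The plot of tissue differences by family shows that the silent Kv subunits were the most one-sided group, with all 10 probes called lower, and that the KCNQ channels likewise had no probe called higher. The other channel families held calls in both directions. For BK channels and relatives, however, the only higher call was that of Kcnmb1, a probe that entered the tests through hypothalamus only.

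**Figure D1:**
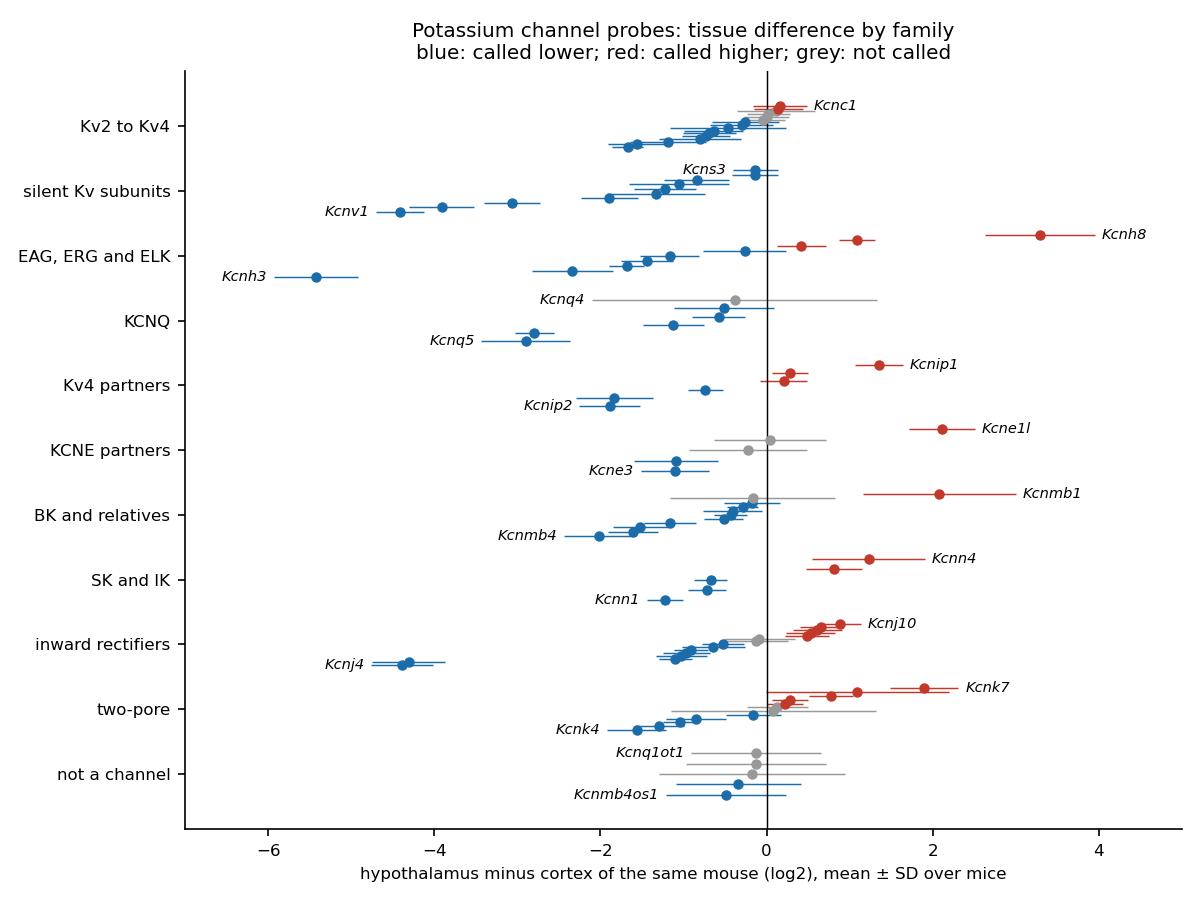
Difference between hypothalamus and frontal cortex of the same mouse for each measured potassium channel probe, in log2 units, with points at the mean and bars of 1 SD over the mice; the families are on the vertical axis and outermost probes of each family are named. Most points lie left of 0, from Kcnh3 at -5.42, and Kcnh8 of the same family lies farthest right at 3.29.

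The EAG, ERG and ELK family held both ends of the range. Kcnh3, an ELK channel known from forebrain neurons, had cortical levels from -0.06 to 1.18 (median 0.54) and hypothalamic levels from -5.99 to -3.62 (median -4.96). The ranges were far apart, and the signal was 42.9-fold lower in hypothalamus (difference -5.42, SE 0.10, 24 of 24 mice, adjusted p = 2.59e-23). Its relative Kcnh8, also an ELK channel, ran the other way, from -7.11 to -4.66 (median -5.84) in cortex and from -3.17 to -0.81 (median -2.62) in hypothalamus. That difference was 3.29 (SE 0.14, adjusted p = 6.95e-17), 9.80-fold, with the cortical probe well above background on 19 of 24 arrays. Of the ERG channels, Kcnh2 was higher in hypothalamus by 1.09 (SE 0.05) and Kcnh6 by 0.42 (SE 0.06), both in 24 of 24 mice, whereas Kcnh7 was lower (difference -2.34, SE 0.10). The EAG channels Kcnh1 and Kcnh5 were lower, with differences of -1.69 and -1.44 for the Kcnh1 probes and -1.16 for Kcnh5.

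Among the silent Kv subunits, which modify Kv2 channels, Kcnv1 and Kcns1 had the widest gaps. Kcnv1 probe A_52_P302316 had levels from -0.82 to 0.11 (median -0.33) in cortex and from -5.55 to -4.20 (median -4.81) in hypothalamus, a difference of -4.41 (SE 0.06), and the other Kcnv1 probe differed by -3.91. Kcns1 differed by -3.06 (SE 0.07) and Kcnf1 by -1.89. The subunits Kcng2 and Kcns3 were nearly even, each with a difference of -0.13. Kcnb2, a Kv2 channel gene, was lower too (-0.69).

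Both Kcnj4 probes placed this inward rectifier of forebrain neurons in cortex. Probe A_51_P166740 had levels from 4.60 to 5.10 (median 4.85) in cortex and from 0.04 to 1.26 (median 0.40) in hypothalamus, and the difference was -4.39 (SE 0.08, 24 of 24 mice). The other probe gave -4.31 (SE 0.09). The other inward rectifiers went both ways. The G-protein-gated channels Kcnj3, Kcnj6 and Kcnj9 were lower in hypothalamus, with differences of -0.91, -1.10 and -1.03, each in 24 of 24 mice. Kcnj11, the pore of the neuronal ATP-sensitive channel, differed by -0.96, Kcnj12 by -0.64 and Kcnj2 by -0.52. Kcnj14 was higher by 0.48 (24 of 24 mice). Among rectifiers of glia, Kcnj10, which carries potassium uptake by astrocytes, had levels from 3.60 to 4.41 in cortex against 4.16 to 5.37 in hypothalamus, a difference of 0.88 (SE 0.05), and the 3 probes of its partner Kcnj16 differed by 0.53 to 0.66. Beside these, the 6 astrocyte markers differed by a median of 0.09, with 3 called higher and 1 lower; of the 7 oligodendrocyte markers all were called higher, with a median of 0.95. All these markers were above background. Their part in the glial channel differences was not tested. Neither probe of Kcnj8, the ATP-sensitive channel of vessel walls, was called (differences -0.13 and -0.09).

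KCNQ channels, which carry the M-current, were lower in hypothalamus at 5 of 6 probes. Kcnq5 had the widest gap, with differences of -2.90 and -2.79. Kcnq3 differed by -1.12. The Kv4 partners divided: Kcnip2 and Kcnip3 were lower in hypothalamus, with differences of -1.89 and -1.83 (-0.74 at the other Kcnip3 probe), while Kcnip1 was higher by 1.35 and Kcnip4 by 0.28 and 0.21. Of the Kv4 pore genes themselves, Kcnd1 was called lower (-0.47, adjusted p = 0.00296, 17 of 24 mice). Its difference was -0.09 in WT, -0.64 in Per3 5/5 and -0.66 in Per3 4/4. Kcnd2 (-0.04 and 0.02) and Kcnd3 (0.12) were not called.

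Of the 11 probes for BK channels and relatives, 9 were lower in hypothalamus. Kcnmb4, the neuronal BK subunit that slows the channel, had levels from 4.71 to 5.60 (median 5.19) in cortex and from 2.74 to 3.89 (median 3.08) in hypothalamus, a difference of -2.02 (SE 0.07). The pore gene Kcnma1 differed by -1.16, and the Slick gene Kcnt2 by -1.61 and -1.52. Kcnmb1, the BK subunit of smooth muscle, was well above background on 22 of 24 hypothalamic arrays and on no cortical array. This probe entered the tests through hypothalamus only, so its higher call there is given without a size. The other Kcnmb1 probe was not measured. Of the calcium-gated SK and IK channels, Kcnn1 and Kcnn2 were lower (differences -1.22, and -0.72 and -0.67), and Kcnn3 and Kcnn4 were higher (0.81 and 1.23). Among KCNE partners, Kcne1l was higher in hypothalamus by 2.12 (SE 0.08), with levels from -1.22 to 0.48 in cortex against 1.03 to 2.33 in hypothalamus, while both Kcne3 probes were lower (-1.10 and -1.09).

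Two-pore channels were balanced, with 5 of 12 probes called in each direction, 1 of the higher ones for Kcnk5. Kcnk7 was higher in hypothalamus by 1.90 (SE 0.08) and Kcnk13 by 0.77, whereas the mechanosensitive channel gene Kcnk4 differed by -1.56, Kcnk12 by -1.30 and Kcnk1 by -1.04. Kcnk5 entered the tests through hypothalamus only. Its probes were well above background there on 21 and 15 of 24 arrays, against 12 and 9 in cortex. So no size is given for it, nor for Kcnmb1, Kcnmb3 and Kcnmb4os1, which also entered through 1 tissue. Without the 5 probes measured in 1 tissue only, 20 of 95 probes were called higher in hypothalamus and 62 lower. The widest differences held in each genotype: Kcnh3 had -5.31 in WT, -5.55 in Per3 5/5 and -5.40 in Per3 4/4, and Kcnv1 probe A_52_P302316 had -4.54, -4.37 and -4.32.

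The stretches of DNA before the transcription start of 4 channels are shown because the data turn on these genes. Kcnj4 was high in cortex and Kcnh8 in hypothalamus, Kcnc4 was called higher in both knock-ins in hypothalamus and Kcnmb4 lower in both. Each line holds the 250 bases before the start in RefSeq's GRCm38.p6, read 5′ to 3′ on the gene's strand: Kcnj4 at chr15:79505242-79505491 on the minus strand, Kcnh8 at chr17:52602459-52602708 on the plus strand, Kcnc4 at chr3:107458899-107459148 and Kcnmb4 at chr10:116473524-116473773, both on the minus strand. Capitals mark the GC box GGGCGG, the CRE core TGACG and the E-box CACGTG, each searched on both strands; no motif overlaps another here, and a pair of GC boxes in Kcnj4 directly abut.
Kcnj4: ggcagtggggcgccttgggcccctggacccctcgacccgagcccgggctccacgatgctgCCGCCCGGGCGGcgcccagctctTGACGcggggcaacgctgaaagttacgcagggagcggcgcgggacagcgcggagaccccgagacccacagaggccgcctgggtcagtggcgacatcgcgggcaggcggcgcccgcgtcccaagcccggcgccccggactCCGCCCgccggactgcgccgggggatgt
Kcnh8: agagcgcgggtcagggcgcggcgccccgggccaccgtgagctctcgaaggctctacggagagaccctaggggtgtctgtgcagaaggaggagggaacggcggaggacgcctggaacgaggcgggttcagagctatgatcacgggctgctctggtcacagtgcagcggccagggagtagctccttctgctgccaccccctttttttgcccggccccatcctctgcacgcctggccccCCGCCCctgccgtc
Kcnc4: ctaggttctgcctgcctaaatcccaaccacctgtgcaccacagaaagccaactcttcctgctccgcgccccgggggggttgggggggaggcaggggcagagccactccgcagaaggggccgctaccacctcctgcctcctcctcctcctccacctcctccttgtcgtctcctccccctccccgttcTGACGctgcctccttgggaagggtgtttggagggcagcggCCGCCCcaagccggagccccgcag
Kcnmb4: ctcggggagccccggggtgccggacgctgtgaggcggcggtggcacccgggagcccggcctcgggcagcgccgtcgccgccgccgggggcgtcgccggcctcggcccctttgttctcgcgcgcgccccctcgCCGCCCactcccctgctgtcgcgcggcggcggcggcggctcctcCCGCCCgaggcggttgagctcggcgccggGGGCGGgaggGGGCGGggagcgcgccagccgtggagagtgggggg
None of the 4 stretches held the E-box through which the clock proteins CLOCK and BMAL1 are known to act. Kcnj4 and Kcnc4 each held 1 CRE core. GC boxes numbered 3, 1, 1 and 4 in Kcnj4, Kcnh8, Kcnc4 and Kcnmb4. Such a stretch was at hand for 55 of the 77 genes, 75 stretches in all. Of these, 48.0% held a GC box against 32.7% of all 32851 stretches, 14.7% a CRE core against 17.8%, and 5.33% an E-box against 6.02%; the members with the E-box were Kcne4, Kcnh4, Kcnj2 and Kcnn4. The median GC content was 59.2% in the members and 52.4% in all.

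The comparison of the knock-ins with WT asked what exchanging the repeat region changed in sleep-deprived mice. Across both tissues and both knock-ins, 42 probes of 36 channel genes were called at least once, 42% of the members against 36.8% of all probes. Of the 67 calls, 55 were toward a higher signal in the knock-in (82.1%, against 58.6% of the calls over all probes). With arrays scaled to their median, 29 of 48 calls were toward higher (60.4%, against 30.9% over all probes), and in Per3 5/5 cortex the lower calls then outnumbered the higher ones. The calls had sizes from 0.21 to 0.97 log2 units with a median of 0.46, smaller than many of the tissue differences. Calls were common in each comparison. So for all arrays, scaled to the 75th percentile and without a block, the shares over all probes stand beside the counts. The plot of calls by gene shows 39 of the 42 probes; Kcng2, a silent Kv subunit, was the only one called in all 4 comparisons.

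**Figure D2:**
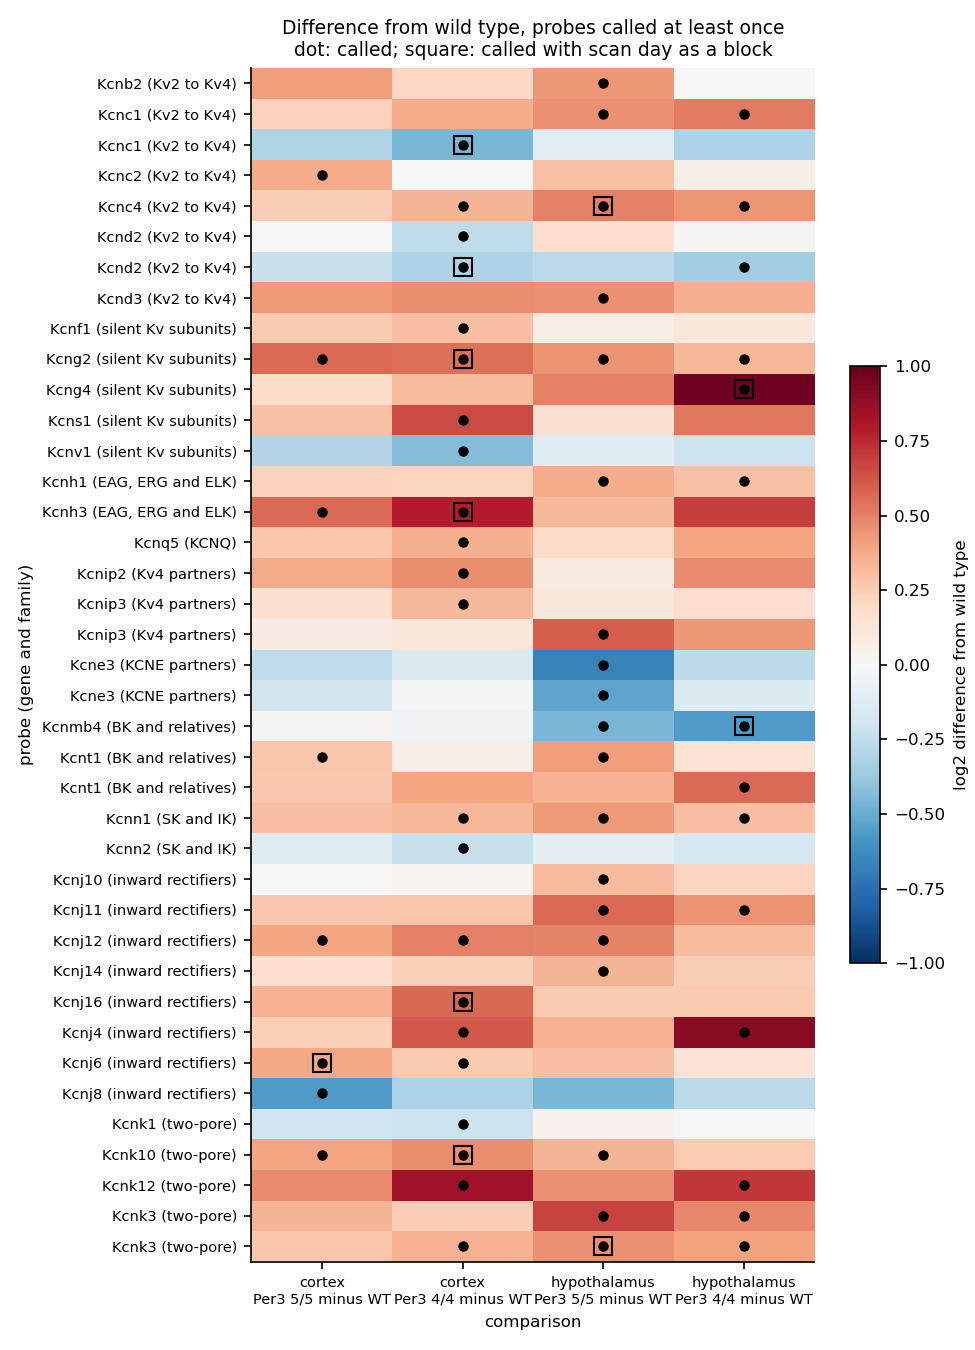
Log2 difference from wild type of 39 potassium channel probes called in at least 1 of 4 comparisons, coloured from blue (lower in the knock-in) to red (higher); each row is a probe with its gene and family, dots mark calls and squares mark calls with scan day as a block. Red prevails in all 4 columns, though with arrays scaled to their median the lower calls outnumber the higher ones in Per3 5/5 cortex, and squares are few: 1, 6, 2 and 2 from left to right.

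In cortex of Per3 5/5 mice, 8 of 96 probes were called higher than in WT and 1 lower, against 8.44% and 3.91% of all probes. The higher ones included Kcng2, Kcnh3, Kcnj12, Kcnk10, Kcnj6, Kcnc2 and Kcnt1. With arrays scaled to their median instead, 2 were higher and 7 lower; that scaling moved the median difference of all probes from 0.06 to -0.05. The median difference of the channel probes was 0.15 without it. In cortex of Per3 4/4 mice, 18 of 96 probes were called higher and 6 lower, against 13.4% and 9.14% of all probes, or 8 and 5 with median scaling. With normexp background correction, which moved the median difference of all probes from 0.02 to 0.22, the split was 48 and 6. The called channel probes were 18.8% of those tested toward higher and 6.25% toward lower in Per3 4/4, and 8.33% and 1.04% in Per3 5/5.

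Kcng2 had cortical levels from -1.58 to -0.75 (median -1.03) in WT, from -0.68 to -0.29 (median -0.48) in Per3 5/5 and from -0.74 to -0.34 (median -0.53) in Per3 4/4. Every knock-in array lay above every WT array. The differences were 0.56 (SE 0.10, adjusted p = 0.00306) in Per3 5/5 and 0.55 (SE 0.10, adjusted p = 0.00147) in Per3 4/4. In hypothalamus they were 0.45 (adjusted p = 0.00938) and 0.33 (adjusted p = 0.0473), with overlap. With scan day as a block the cortical differences were 0.46 in both knock-ins, called in Per3 4/4 (adjusted p = 0.0163) and just short of a call in Per3 5/5 (adjusted p = 0.0503), whereas in hypothalamus they were 0.22 and 0.15, neither called. On 1 day alone, the hypothalamic difference of Per3 4/4 was 0.05.

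The ELK channel Kcnh3 was also called in cortex of both knock-ins. Its levels there ran from -0.06 to 0.16 (median 0.02) in WT, from -0.02 to 1.03 (median 0.74) in Per3 5/5 and from 0.45 to 1.18 (median 0.90) in Per3 4/4. All 8 Per3 4/4 arrays and 6 of 8 Per3 5/5 arrays lay above the WT range. The differences were 0.56 (SE 0.14, adjusted p = 0.015) and 0.78 (SE 0.14, adjusted p = 0.00148), and with scan day as a block 0.39 (not called) and 0.56 (adjusted p = 0.0111). Per3 5/5 arrays differed by day, with a mean of 0.91 on day 1 and 0.30 on day 3, when WT had a mean of -0.04. In hypothalamus, where Kcnh3 is low, the differences were 0.32 and 0.69 and not called (adjusted p = 0.379 and 0.0645).

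Kcnk10, a mechanosensitive two-pore channel, had cortical levels from -4.83 to -4.18 (median -4.59) in WT, from -4.46 to -3.92 (median -4.12) in Per3 5/5 and from -4.31 to -3.76 (median -4.11) in Per3 4/4. It was higher by 0.39 and 0.47, and the second call held with scan day as a block (0.36, adjusted p = 0.0352). Kcnj6, a G-protein-gated inward rectifier, was higher by 0.38 and 0.27, with levels from -3.40 to -2.77 in WT, from -2.73 to -2.47 in the 8 Per3 5/5 arrays and from -2.80 to -2.64 in the Per3 4/4 arrays. All Per3 5/5 arrays lay above WT, and this was the only Per3 5/5 call in cortex that held with scan day as a block (0.36, adjusted p = 0.0472); the Per3 4/4 call did not (0.25, adjusted p = 0.052). Kcnj12, a strong inward rectifier, was higher by 0.40 and 0.50 in cortex; all 8 Per3 4/4 arrays, from 1.04 to 1.36, exceeded the highest WT array at 0.95. Its differences with scan day as a block were 0.38 and 0.42, with adjusted p of 0.144 and 0.056.

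**Figure D3:**
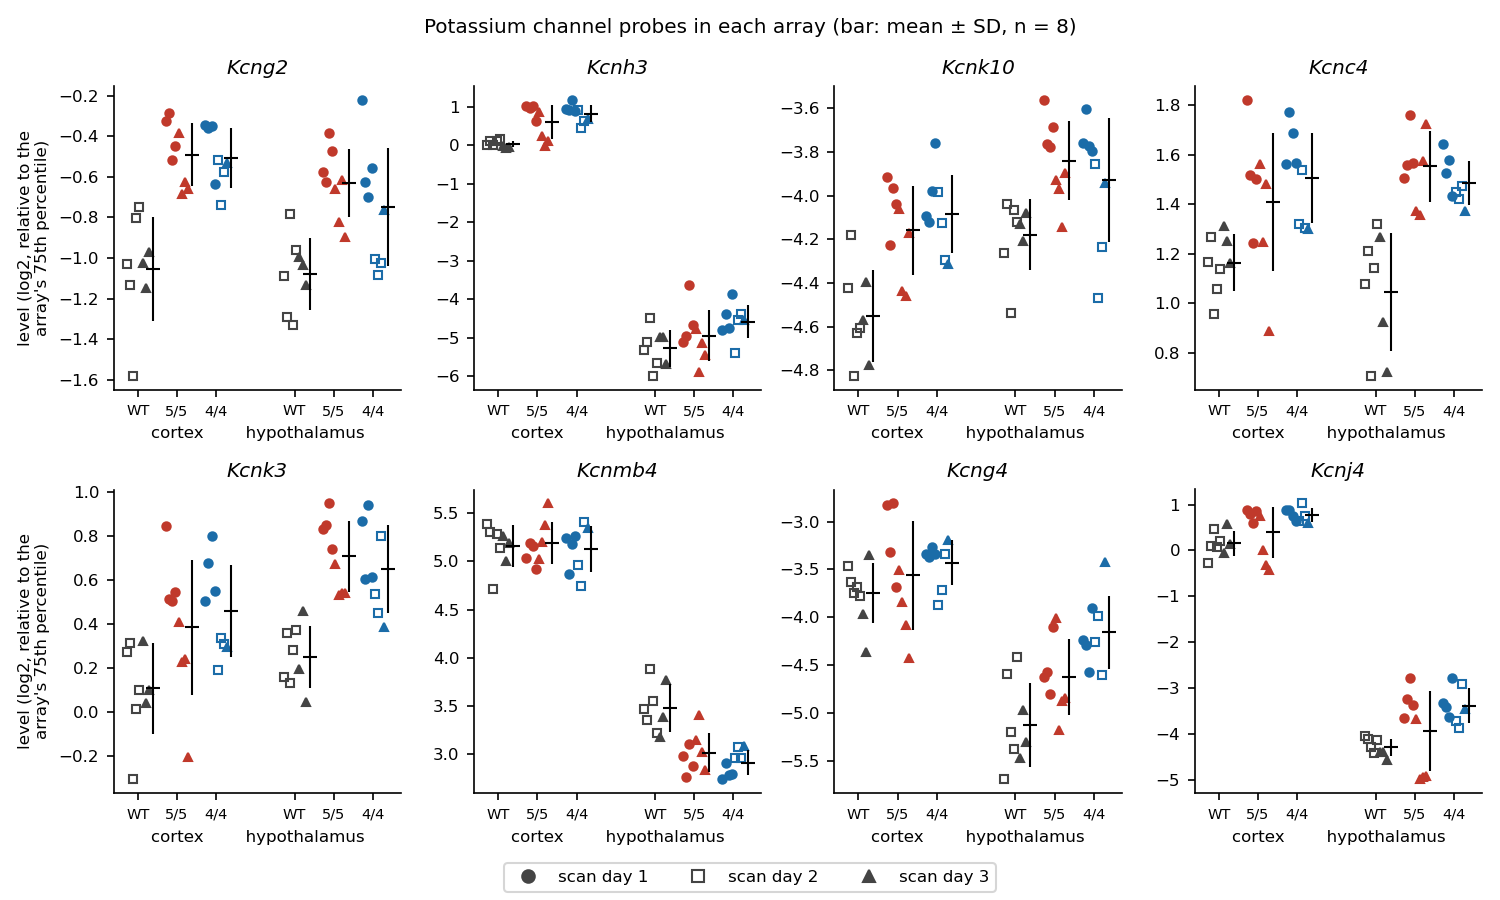
Level of 8 potassium channel probes on each array, in log2 units relative to the 75th percentile of the array, for wild type (WT, grey), Per3 5/5 (red) and Per3 4/4 (blue) in cortex and hypothalamus; symbols give the scan day and bars the mean with 1 SD of 8 arrays. Kcng2 in cortex and Kcnc4 in hypothalamus have every knock-in array above the WT arrays, and for Kcnj4 most Per3 5/5 arrays of day 3 lie below those of day 1.

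In Per3 4/4 cortex, Kcnc1 probe A_52_P867058 (Kcnc1 is a Kv3 channel of fast-spiking neurons) had levels from 0.89 to 1.50 (median 1.05) against 1.19 to 1.81 (median 1.55) in WT, lower on 6 of 8 arrays than any WT array. The difference was -0.46 (SE 0.11, adjusted p = 0.00537) and held with scan day as a block (-0.39, adjusted p = 0.0398). The other Kcnc1 probes differed by -0.01 and 0.37, neither called. Beside it, 3 of 6 markers of inhibitory neurons were called lower in this comparison, with a summed level (linear, 1 being the 75th percentile) from 45.8 to 66.9 against 57.6 to 75.5 in WT; their part in the Kcnc1 difference was not tested. Both Kcnd2 probes, for the dendritic A-type channel, were lower in Per3 4/4 cortex, with differences of -0.30 (adjusted p = 0.0156) and -0.25 (adjusted p = 0.0487), the first also with scan day as a block (adjusted p = 0.0344). Kcnv1, Kcnn2 and Kcnk1 had differences of -0.44, -0.23 and -0.21, and blocked by scan day their adjusted p were 0.146, 0.272 and 0.0613.

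In Per3 5/5 cortex the one lower call was Kcnj8 probe A_52_P225898. Levels were from -4.03 to -2.77 (median -3.44) against -2.99 to -2.57 (median -2.89) in WT, a difference of -0.57 (SE 0.18, adjusted p = 0.04, or 0.145 when blocked by scan day). The other Kcnj8 probe differed by -0.44 (adjusted p = 0.133). Abcc9, which encodes the sulfonylurea receptor that joins Kcnj8 in vessel walls, differed by -0.56 (adjusted p = 0.0856). None of 7 vascular and mural markers was called, and their summed level ran from 20 to 31 in Per3 5/5 against 24.6 to 30.4 in WT; their part in the Kcnj8 difference was not tested.

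The largest called differences in Per3 4/4 cortex were those of Kcnk12 (0.84), Kcnh3 (0.78) and Kcns1 (0.65), followed by Kcnj4 probe A_52_P4285 (0.61). For Kcnk12 and this Kcnj4 probe, all 8 Per3 4/4 arrays exceeded all WT arrays. Within Per3 5/5 mice, these probes differed between scan days. Kcnk12 in Per3 5/5 cortex had a mean of -0.73 on day 1 and -1.65 on day 3, when WT had -1.70, and the Kcnj4 probe had 0.78 and 0.00 on these days, with WT at 0.23 on day 3. The second probe of Kcnj4 was not called (adjusted p = 0.905). Blocked by scan day, none of Kcnk12, Kcns1 or Kcnj4 was called, with adjusted p from 0.0668 to 0.144. By contrast, Kcnj16 probe A_51_P357773 was higher by 0.57 (SE 0.12, adjusted p = 0.00378) and by 0.53 with the block (adjusted p = 0.0258); the other Kcnj16 probes differed by 0.40 and 0.09, not called. Kcnh4, an ELK channel, was called with the block alone (0.54, adjusted p = 0.0368; 0.29 and adjusted p = 0.232 without it).

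In hypothalamus, 17 of 99 probes were called higher and 3 lower in Per3 5/5 mice, against 10.3% and 8.55% of all probes, or 11 and 5 with median scaling. In Per3 4/4 mice 12 were called higher and 2 lower, against 8.24% and 6.81%. Without the dim Per3 4/4 replicates 6 and 7, 20 were higher and 4 lower. As shares of the channel probes tested, these calls were 17.2% and 3.03% in Per3 5/5 and 12.1% and 2.02% in Per3 4/4. The genes called in both knock-ins were Kcnc4, Kcnc1, Kcng2, Kcnh1, Kcnj11, Kcnk3 (both probes) and Kcnn1, all higher, and Kcnmb4, lower. Both sets of calls rest on the same WT arrays.

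Kcnc4, a fast-inactivating Kv3 channel, had hypothalamic levels from 0.71 to 1.32 (median 1.11) in WT, from 1.36 to 1.76 (median 1.56) in Per3 5/5 and from 1.37 to 1.64 (median 1.46) in Per3 4/4. No knock-in array reached down to the WT range. The differences were 0.51 (SE 0.09, adjusted p = 0.00187) and 0.44 (SE 0.09, adjusted p = 0.0072). Blocked by scan day they were 0.49 (adjusted p = 0.0304) and 0.40 (adjusted p = 0.0583), and within 1 day 0.54 and 0.36. In cortex Kcnc4 was called in Per3 4/4 (0.34) but not with the block.

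In hypothalamus, Kcnc1 probe A_52_P592305 was higher by 0.46 in Per3 5/5 and by 0.52 in Per3 4/4. Blocked by scan day the differences were 0.34 and 0.32, neither called (adjusted p = 0.124 and 0.142), and within 1 day 0.31 and 0.30. The same probe had an uncalled difference of 0.37 in Per3 4/4 cortex, and the probe that was lower there, A_52_P867058, had an uncalled -0.31 in Per3 4/4 hypothalamus.

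Kcnk3, the acid-sensitive two-pore channel TASK, was called at both probes in both knock-ins. Probe A_52_P639402 had levels from 0.05 to 0.46 (median 0.24) in WT, from 0.54 to 0.95 (median 0.71) in Per3 5/5 and from 0.39 to 0.94 (median 0.61) in Per3 4/4, and all 8 Per3 5/5 arrays lay above WT. The differences were 0.46 (SE 0.09, adjusted p = 0.00284) and 0.40 (SE 0.09, adjusted p = 0.0104), the first called with scan day as a block (0.37, adjusted p = 0.0401). Probe A_51_P292221 gave 0.67 and 0.48, with 0.44 and 0.38 under the block, not called. Kcnj11 was higher by 0.56 (SE 0.11, adjusted p = 0.00246) and 0.45 (adjusted p = 0.0128), with levels from -2.38 to -1.58 in WT against -1.55 to -1.07 in Per3 5/5, which did not overlap. Its receptor partner Abcc8 was called higher in Per3 5/5 (0.37, adjusted p = 0.0208; 0.112 when blocked) and not in Per3 4/4 (0.12). Kcnn1, a small-conductance calcium-gated channel, was higher by 0.42 and 0.30, and Kcnh1 probe A_51_P297850 by 0.37 and 0.29. The other Kcnh1 probe, A_52_P268713, was called in neither knock-in. Its hypothalamic means were -2.72 in WT, -2.74 in Per3 5/5 and -2.53 in Per3 4/4. None of the Kcnj11, Kcnn1 and Kcnh1 calls held with the block, where adjusted p ran from 0.052 to 0.222.

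Kcnmb4 was the member called lower in both knock-ins. Its hypothalamic levels ran from 3.18 to 3.89 (median 3.43) in WT, from 2.77 to 3.40 (median 3.0) in Per3 5/5 and from 2.74 to 3.09 (median 2.93) in Per3 4/4. All 8 Per3 4/4 arrays and 7 of 8 Per3 5/5 arrays lay below WT. The differences were -0.46 (SE 0.10, adjusted p = 0.00554) and -0.56 (SE 0.10, adjusted p = 0.00468). Blocked by scan day they were -0.35 (adjusted p = 0.099) and -0.46 (adjusted p = 0.0496), and within 1 day -0.34 and -0.50. In cortex the differences were 0.03 and -0.03, neither called (adjusted p = 0.89 and 0.858). The difference between tissues was itself tested as an interaction and was not called, at -0.49 (unadjusted p = 0.00861, adjusted p = 0.791 in limma) for Per3 5/5 and -0.53 (unadjusted p = 0.0048, adjusted p = 0.925) for Per3 4/4.

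Kcng4, a silent Kv subunit, had the largest called genotype difference, in Per3 4/4 hypothalamus. Levels were from -5.69 to -4.41 (median -5.25) in WT and from -4.60 to -3.42 (median -4.25) in Per3 4/4, above WT on 6 of 8 arrays. The difference was 0.97 (SE 0.20, adjusted p = 0.00708), blocked by scan day 0.96 (adjusted p = 0.0496) and 0.77 within 1 day. Kcnj4 probe A_52_P4285 (0.91) and Kcnk12 (0.71) came next, and neither was called with the block. The lower calls of Per3 5/5 hypothalamus beside Kcnmb4 were both probes of Kcne3, an accessory subunit known from epithelia and muscle. They had differences of -0.67 (adjusted p = 0.0152) and -0.53 (adjusted p = 0.00827), and blocked by scan day neither was called (adjusted p = 0.208 and 0.0636). Kcne3 was dim, with 6 and 7 of 8 Per3 5/5 arrays well above background, and with normexp background correction the differences were 0.00626 and 0.0116. Kcnd2 probe A_52_P124472 was lower in Per3 4/4 hypothalamus (-0.35, adjusted p = 0.0339), but not called when blocked by scan day (-0.24, adjusted p = 0.237).

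Markers of other cells were also called in hypothalamus. In Per3 4/4 mice 6 of 7 oligodendrocyte markers were called higher (median 0.45), and their summed level ran from 242 to 337 against 183 to 267 in WT. In Per3 5/5 mice 3 of 7 were called higher (from 224 to 282), and of 6 astrocyte markers 3 were called higher and 1 lower, with a summed level from 199 to 243 against 148 to 186. In Per3 4/4 mice 2 of 6 astrocyte markers were called higher (median 0.32), with a summed level from 174 to 250. Kcnj10, the astrocyte channel, was higher in Per3 5/5 hypothalamus by 0.32 (SE 0.11, adjusted p = 0.0387; blocked by scan day 0.38, adjusted p = 0.0712). Marker counts between genotypes, here and elsewhere, come from the fit without scan day as a block, and scan days were uneven between genotypes. The part of oligodendrocytes and astrocytes in the channel differences was not tested. Pituitary markers summed to between 1.28 and 747 in WT hypothalamus, and striatal markers to between 25.1 and 154 in WT cortex, each with a wide spread between dissected blocks.

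Over all probes, 8.44% were called higher and 3.91% lower in Per3 5/5 cortex, and 13.4% and 9.14% in Per3 4/4 cortex. In hypothalamus these shares were 10.3% and 8.55% in Per3 5/5, and 8.24% and 6.81% in Per3 4/4. Whether a family or the partner genes below differed from these shares was not tested. By family, the Kv2 to Kv4 group had 2 probes called higher and none lower in Per3 5/5 cortex, 2 and 3 in Per3 4/4 cortex, 5 and none in Per3 5/5 hypothalamus, and 2 and 1 in Per3 4/4 hypothalamus, of 16 tested. Inward rectifiers had 2 and 1, 4 and 0, 4 and 0, and 2 and 0 of 15. Two-pore channels had 1 and 0, and 3 and 1, of 10 in cortex, and 3 and 0 in each knock-in of 12 in hypothalamus. Of the 6 KCNQ probes, 2 were called, both in Per3 4/4 cortex. Of 14 genes that assemble with or resemble these channels but carry other names, 12 were tested in cortex and 13 in hypothalamus. Of these, 2 were called higher and 0 lower in Per3 5/5 cortex, 1 and 2 in Per3 4/4 cortex, 4 and 0 in Per3 5/5 hypothalamus, and 0 and 2 in Per3 4/4 hypothalamus. Amigo1, a partner of Kv2 channels, was higher in cortex of both (0.39 and 0.36) and in Per3 5/5 hypothalamus (0.63, adjusted p = 0.00702). Blocked by scan day these were 0.20, 0.17 and 0.33, none of them called (adjusted p = 0.232, 0.235 and 0.15). The pacemaker channel gene Hcn3 was lower in Per3 4/4 cortex (-0.53, adjusted p = 0.00791), also with scan day as a block (-0.30, adjusted p = 0.0386), and in Per3 4/4 hypothalamus without the block only (-0.44, adjusted p = 0.0399, against 0.36 with it). Hcn4 was higher in Per3 5/5 hypothalamus (0.72, adjusted p = 0.0261), not when blocked (adjusted p = 0.161).

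The calls were fewer with scan day in the fit. Of the 67 calls, 11 were called again with scan day as a block, and 1 further probe was called. The calls numbered 1 in Per3 5/5 cortex (0.986% of all probes), 7 in Per3 4/4 cortex (7.72%), and 2 in hypothalamus of each knock-in (2.1% in Per3 5/5 and 0.745% in Per3 4/4). The differences kept their sign in all 67, and the median ratio of the blocked to the unblocked difference was 0.772. Within the 1 day that held both groups, with 3 to 5 arrays a group, 0 of 96 or 99 probes were called in limma in each comparison, against 0.00337% and 0.552% of all probes in cortex and 0.00325% and 0.0163% in hypothalamus of Per3 5/5 and Per3 4/4. At an unadjusted p under 0.05 there were 14 in Per3 5/5 cortex (17.3% of all probes), 24 in Per3 4/4 cortex (22.8%), 19 in Per3 5/5 hypothalamus (17.8%) and 11 in Per3 4/4 hypothalamus (8.94%). These within-day differences had the sign of the full comparison in all 67 calls, but the same arrays enter both.

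**Figure D4:**
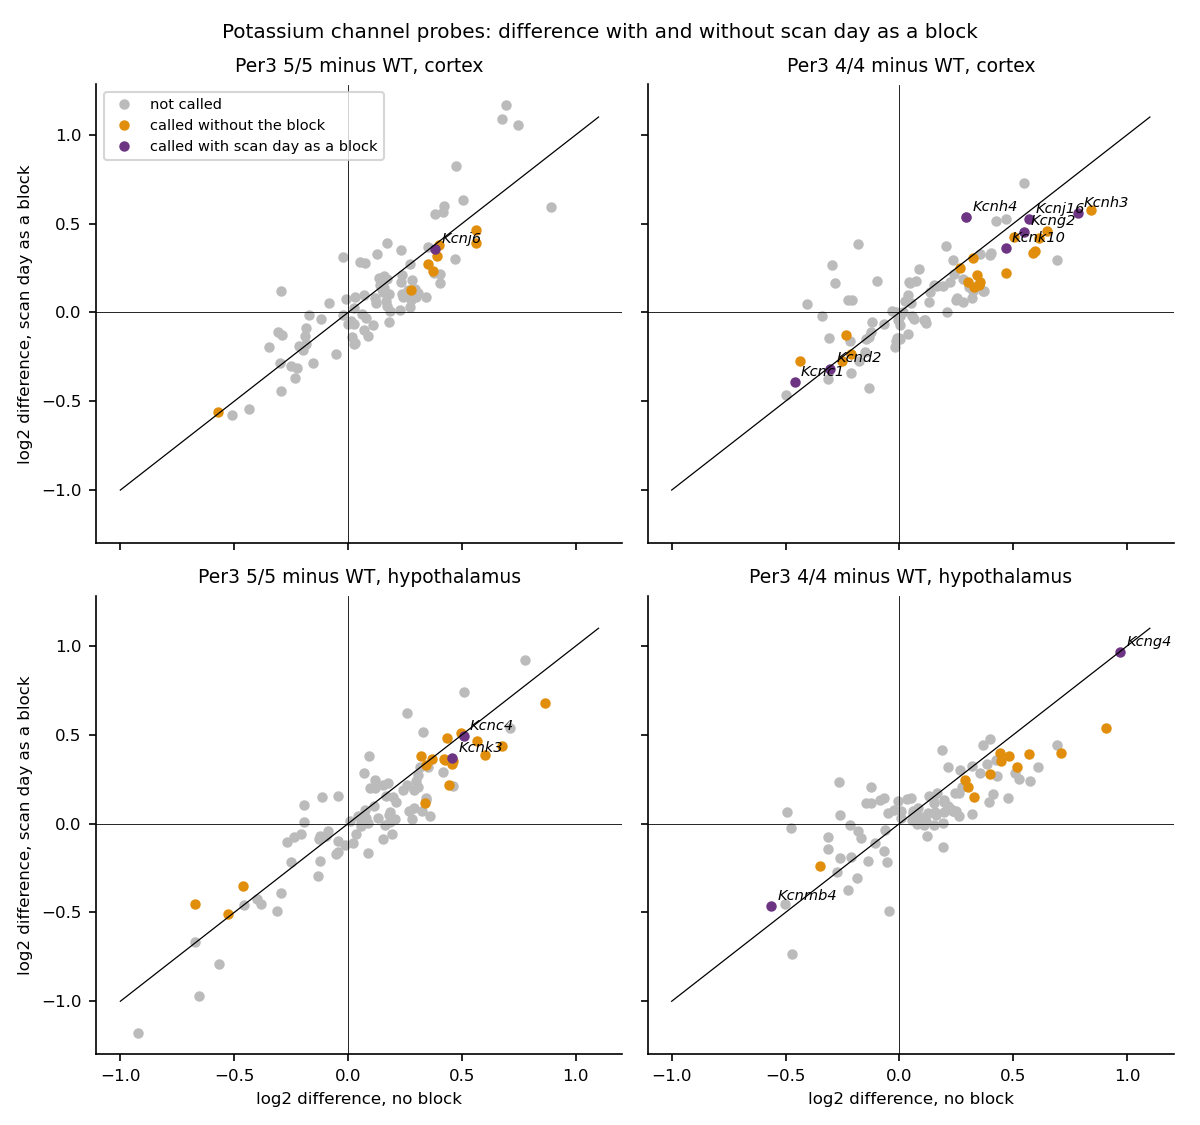
Log2 difference from wild type of each tested potassium channel probe without a block (horizontal) and with scan day as a block (vertical) in the 4 comparisons; the line marks equal values. Called probes (orange) mostly lie nearer to 0 on the vertical than on the horizontal axis, and the named purple points are those called with the block, such as Kcng4 at 0.97 and 0.96.

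Probes of the same gene did not always answer alike. Of 20 channel genes with at least 2 tested probes in cortex, 4 had some but not all probes called in Per3 5/5 and 0 had all; in Per3 4/4 these were 9 and 1. Of 21 in hypothalamus they were 5 and 2, and 5 and 1. In no genotype comparison were probes of a gene called in opposite directions. Between tissues, 16 of 21 such genes had all probes called, and Kcnc1 had probes called both ways (-0.63, 0.14 and 0.16).

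The knock-ins were compared with each other to see whether 5 and 4 repeats differ. No channel probe was called between the knock-ins in limma, in 96 probes of cortex or 99 of hypothalamus (0 of all probes called in each tissue, 0%). Unadjusted p was under 0.05 for 11 and 19 of them, against 15.7% and 16.2% of all probes. The unpaired t-test of the study's methods called 0 in each. The study could also call a probe by rank products, which was not run here, so its own calls between the knock-ins were not repeated. The smallest adjusted p were 0.252 (Kcnc2 in cortex, higher in Per3 5/5 by 0.37) and 0.227 (Kcnt1 in hypothalamus, higher by 0.27). The 4 measured probes of the noncoding Kcnq1ot1 had differences of 0.86 to 1.03 in cortex and of 0.59 to 0.98 in hypothalamus, Per3 5/5 minus Per3 4/4, with SE from 0.30 to 0.43. Their unadjusted p ran from 0.00699 to 0.184 and their adjusted p were at least 0.236. The genotype by tissue interaction was called for none of 100 channel probes in any of the 3 comparisons, against 0.00961%, 0.0032% and 0% of all probes. At an unadjusted p under 0.05 there were 8, 8 and 0 of 100, against 6.22%, 5.0% and 3.83% of all probes.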

How the data were processed

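Total RNA from frontal cortex and hypothalamus of 24 mice was hybridised to 48 one-colour Agilent arrays, 1 per tissue and mouse. The intensity values are the processed signals deposited per array, which the authors obtained with Agilent Feature Extraction 10.7.1.1 (background subtraction and spatial detrending, array annotation mm9). The deposited files also hold a quality call of 0 or 1 for each spot. For the series table, log2 values were made by the authors in GeneSpring 12 with a shift to the 75th percentile and deposited with column medians from -0.104 to 0.092. Levels computed here, centred on each probe's median over the arrays of a tissue, lay within 0.05 of the table for 99.97% of values. Its cells were blank for 29.07% of probes in cortex, and it served as an alternative where at least 18 arrays had a value. Symbols were read from each probe's RefSeq accession through a table of assembly GRCm38.p6, which named 27668 of 41174 probes (67.2%), for 18883 genes.

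Levels were log2 processed signal minus log2 of the 75th percentile of the array, with spots marked as outliers left out and spots of 1 probe averaged. No spot was saturated, and no array duplicated another. Arrays of a group correlated with r from 0.968 to 0.989. The number of arrays limits the precision. Genotypes were compared within each tissue with limma 3.58.1 in R 4.3.3 over the 24 arrays (lmFit and eBayes, two-sided, Benjamini-Hochberg over all tested probes), and tissues on the within-mouse difference, paired by the mouse number in the labels. A probe entered a tissue's tests when at least 6 of the 8 arrays of any group had it well above background. The fits were tested on simulated data. A summed level of a marker list is the sum of its genes' linear levels, where 1 is the 75th percentile, with the brightest probe per gene.

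The genes given in detail were, by rule, probes called alike in both knock-ins, the 3 largest calls in each direction of each comparison, the 8 largest tissue differences in each direction, members measured in 1 tissue, genes with probes called both ways, and calls with scan day as a block. This gave 37 genes, of which some are not reported here; other channels named were picked after their values were seen. The members and gene lists were chosen with earlier results of these data known. Alternatives were scan day as a block, slide as a random block, replicate number as a block, 1 scan day alone, median scaling, quantile normalization, normexp (offset 50) on median rather than mean signals, other filters, gene means, the series table and the methods' t-test. The study also called probes by rank products, beside or in place of its t-test, and this was not run.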

Additional observations from a re-analysis of the deposited data

Results flagged for a closer look

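For the probes named for a genotype difference, 90 groups of 8 arrays were checked, in the tissue of that difference only. Of these, 4 held an array that stood apart from the other 7 by Dixon's criterion, where chance alone gives about 1 in 20. Other groups of the named probes were not checked. Kcnd2 probe A_52_P124472 had a level of 3.24 in hypothalamus of Per3 5/5 replicate 6, against 2.46 to 2.83 in the other arrays of the group. Kcne3 probe A_52_P243425 had -5.19 in hypothalamus of WT replicate 1, against -5.80 to -5.54. Kcnip3 probe A_52_P203269 had -0.962 in hypothalamus of WT replicate 3, against -0.144 to 0.449. Kcnj6 probe A_52_P191086 had -3.40 in cortex of WT replicate 3, against -3.04 to -2.77, and lies in the WT group with which the Kcnj6 calls in cortex were made.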

How the results depend on the processing

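The counts of called probes between genotypes moved with scan day and with background correction. In Per3 5/5 cortex, 9 calls became 1 with scan day as a block, 0 on 1 scan day alone and 28 with normexp. In Per3 4/4 cortex, 24 became 7, 0 and 54, with 13 under median scaling and 14 for gene means. In Per3 5/5 hypothalamus, 20 became 2, 0 and 11. In Per3 4/4 hypothalamus, 14 became 2, 0 and 9, with 8 with slide as a random block, 7 for gene means and 24 without replicates 6 and 7 of Per3 4/4, a choice made after seeing the data. The cause was not tested, except that 1 day alone leaves fewer arrays and gene means fewer tests. Normexp moved the median over all probes to 0.15 and 0.22 in cortex and to 0.09 and 0.16 in hypothalamus. Calls over all probes moved too. In at least 1 of the 4 comparisons with WT, 42% of channel probes and 36.8% of all probes were called. With median scaling these shares were 31% and 32.6%, and with scan day as a block 12% and 9.39%. For normexp, gene means, the slide and replicate blocks and the fit without replicates 6 and 7, shares over all probes are not given. For Per3 5/5 against WT, Per3 4/4 against WT and Per3 5/5 against Per3 4/4, the replicate block called 9, 25 and 0 in cortex. It called 24, 19 and 0 in hypothalamus. Same-numbered arrays of different genotypes came from different mice, though Per3 5/5 and Per3 4/4 replicates 1 to 4 shared slides. Their deviations correlated from -0.42 to 0.518 over all comparisons, and from 0.033 to 0.342 for Per3 5/5 against WT in hypothalamus. Between tissues, 63 to 87 probes were called under every alternative run, against 85, and 80 without the replicate block that pairs the tissues of a mouse. Of 701 values of named probes under alternatives, 575 kept direction and call, 124 lost the call and 2 turned: Kcne3 in Per3 5/5 hypothalamus with normexp, at 0.00626 and 0.0116. Genotype by tissue counts were 0 under every alternative run. Dim probes limit these statements. Members given with a size but not well above background on every array included Kcne3, Kcnh8, Kcnk7, Kcnd1 and Kcnn4. They also included Kcnq5 probe A_52_P83097 and Kcnv1 probe A_51_P324715.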

Other observations

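Microglial markers were lower in hypothalamus than in cortex in all 5 genes tested (median difference -0.73), and 1 of 5 was called lower in Per3 5/5 mice in each tissue. Choroid plexus markers were called higher in hypothalamus in 6 of 8 genes and lower in 1. Of the 8, Ttr and Otx2 entered the tests through hypothalamus only. Against WT, 2 of 8 choroid plexus markers were called lower in Per3 5/5 hypothalamus and 1 in Per3 4/4 hypothalamus. In cortex 1 of 6 was called higher in each knock-in. Of 6 thalamic markers, 4 were called higher in hypothalamus and 1 lower, and 0 were called between genotypes in either tissue. Of 7 vascular and mural markers, 4 were called lower in hypothalamus and 1 higher. Against WT, 1 of them was called lower in Per3 4/4 cortex and 1 higher in hypothalamus of each knock-in. Of 7 striatal markers, 2 were called higher in hypothalamus of each knock-in, and 0 in cortex. Of 6 pituitary markers tested, 1 was called lower in Per3 5/5 hypothalamus. Of 3 blood markers tested, 0 were called in any comparison. Of the 13 genes that work with these channels under other names, 6 were called higher and 6 lower in hypothalamus than in cortex. Lrrc26, among the 13, entered through hypothalamus only.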
